A study of Mus musculus with 30 samples.

Results

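The 39 interferon-stimulated genes described here fall into these roles: regulators of the response (Irf7, Irf9, Stat2, Nmi, Ifi35, Phf11d, Sp100 and Trim30a), the ISG15 and ubiquitin system (Isg15, Usp18, Ube2l6, Herc6 and Trim25), antiviral effectors (Ifit1, Ifit2, Ifit3, Rsad2, Cmpk2, Mx1, Mx2, Rtp4, Samd9l and Ifi44), membrane restriction factors (Bst2, Ifitm1 and Ifitm3), ADP-ribosylation factors (Parp9, Parp14 and Dtx3l), mitochondrial and cell death proteins (Ifi27, Ifi27l2a and Xaf1), the DNA-binding PYHIN proteins Ifi203 and Ifi204, the schlafens Slfn2 and Slfn5, and Lgals3bp, Lgals9 and Tor3a. All 39 had a row among the 24063 genes of the bulk RNA-seq table, and 38 had a row among the 27933 genes of the single-cell table, which holds no Mx2. Members were taken by gene symbol alone, and all 39 in bulk and all 38 in the single-cell sums passed the filter on low counts.

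Mouse bone marrow was compared between Mettl3KO animals (Mx1-Cre; Mettl3 fl/fl) and WT animals (Mettl3 fl/fl, without Cre), all 3 weeks after treatment with pIpC, a synthetic double-stranded RNA that itself induces interferon and was given to both genotypes. Mettl3 encodes the catalytic subunit of the m6A RNA methyltransferase, and Mx1-Cre is driven by the interferon-inducible promoter of Mx1, so the deletion is not limited to blood cells. Bulk RNA-seq covered 4 populations sorted from the Lin-;Sca1+;c-Kit+ fraction: haematopoietic stem cells (HSC) by CD150+;CD48-, and 3 kinds of multipotent progenitor. MPP4 cells were sorted by CD150-;CD48+, MPP2 cells by CD150+;CD48+ and MPP1 cells by CD150-;CD48-. Droplet-based single-cell RNA-seq (10x) covered Lin-;c-Kit+ cells (LK). Each population and genotype had 3 libraries from different mice, which makes 24 bulk and 6 LK libraries. Whether the same mouse gave several populations is not stated.

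Type I interferons bind a cell-surface receptor whose kinases phosphorylate Stat2, which joins Irf9 in a complex that binds a short promoter element, the interferon-stimulated response element (ISRE), and switches on genes that block viruses at entry, in translation and in release. Irf7 amplifies the response, Usp18 and the Socs proteins damp it, and blood stem cells are known to leave quiescence when exposed to interferon.

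The ISRE was looked for in RefSeq promoter sequence (GRCm38.p6, from 250 bases before to 50 bases after the annotated start), as GAAA, any 2 bases and GAAA again, on either strand (read on the other strand as TTTC, any 2 bases and TTTC). The promoter table held 29 of the 39 members, not Rtp4, Usp18, Ifi27l2a, Ifi27, Parp9, Parp14, Mx1, Mx2, Ifi204 or Tor3a. The element was present in 11 of the 29 (37.9%), against 1079 of all 27025 promoters (3.99%). A second element, the gamma-activated site TTCNNNGAA, which reads the same on both strands, was present in 4 of the 29 (13.8%; Ifit2, Bst2, Ifi35 and Ifitm3), against 2582 of all promoters (9.55%). The 8 windows of 30 bases given here, which leave out Rsad2, Slfn5 and Ifitm3, show how the element is placed. They run 5′ to 3′ on the gene's own strand, with the matching letters in capitals.
Isg15: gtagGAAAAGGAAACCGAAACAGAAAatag
Ifit1: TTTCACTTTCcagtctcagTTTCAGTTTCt
Ifit3: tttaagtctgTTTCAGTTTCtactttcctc
Bst2: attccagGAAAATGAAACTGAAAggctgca
Ifi203: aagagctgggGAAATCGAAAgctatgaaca
Trim30a: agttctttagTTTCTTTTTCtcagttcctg
Stat2: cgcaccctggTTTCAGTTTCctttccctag
Lgals9: tgacatcagcTTTCTTTTTCtctagacact
The Isg15 window (chr4:156200871-156200900, minus strand) holds 3 overlapping matches, the first at position -78 from the start. The Ifit1 window (chr19:34640785-34640814, plus strand) holds 2 matches from position -104, and the Bst2 window (chr8:71537580-71537609, minus strand) 2 overlapping matches from position -130. The Ifit3 window (chr19:34583397-34583426, plus strand) is at position -122, and a further match lies at -156. The others each hold 1 match: Ifi203 (chr1:173942508-173942537, minus strand, position -35), Trim30a (chr7:104465210-104465239, minus strand, -36), Stat2 (chr10:128270266-128270295, plus strand, -222) and Lgals9 (chr11:78984960-78984989, minus strand, -55). A match describes the letters only and shows no binding. Many members lie beside each other: Ifit1, Ifit2 and Ifit3 on chromosome 19, Ifitm1, Ifitm3 and Irf7 on chromosome 7, Parp9, Parp14 and Dtx3l on chromosome 16, Slfn2 and Slfn5 on chromosome 11, and Rsad2 beside Cmpk2 on chromosome 12. Reads of near copies (the Ifit, Ifitm, Mx, Slfn and Phf11 families, and Ifi203 with Ifi204) may have been split between relatives, since how shared reads were counted is not given in the sources used here.

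The bulk libraries held 28896498 to 55276836 counts, and the kept LK cells had a median of 5945 to 10490 UMIs (unique molecular identifiers) per library. Mettl3 levels in HSC, as counts scaled to library size (CPM), were 14.4, 17.2 and 11.6 in Mettl3KO libraries, against 36.5, 31.5 and 42.5 in WT libraries, and the groups did not overlap in MPP1, MPP2, MPP4 or LK either. The genes of the sorted surface proteins followed the gates: Slamf1 (CD150) was at 15.6 to 62.6 CPM in HSC and 0.560 to 4.22 CPM in MPP1 and MPP4, and Cd48 was at 5.58 to 33.5 CPM in HSC and MPP1 and 136 to 254 CPM in MPP2 and MPP4. Some libraries stand apart. Mettl3KO replicate 2 of MPP1 had 67966 summed CPM of 8 neutrophil genes, against 105 to 4161 CPM in the other MPP1 libraries. WT replicate 3 of LK had 86951 summed CPM of the same genes, against 2294 to 7806 CPM in the other LK libraries. Mettl3KO replicate 2 of HSC, MPP1 and MPP2 had 5.49%, 5.12% and 5.50% of counts on the ribosomal RNA gene Rn45s, against at most 3.61% elsewhere.

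In WT populations the members differed widely in level. Per kilobase of exon (RPKM), the highest in WT HSC were the membrane factor Ifitm1, 683 ± 222 RPKM, its relative Ifitm3, 558 ± 149 RPKM, and the mitochondrial protein gene Ifi27, 385 ± 85.3 RPKM (SD, n = 3 each). The lowest were Mx1, 1.92 ± 0.191 RPKM, an antiviral GTPase gene, and Ifi204, 0.264 ± 0.137 RPKM (SD, n = 3 each). Isg15 and Irf7 stood at 15.2 ± 3.78 RPKM and 51.0 ± 8.89 RPKM (SD, n = 3 each).

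Ifit1 and Samd9l were lower in WT MPP2 and WT MPP4 than in WT HSC, while Ifi27l2a was higher in both. Stat2 and Rsad2 were lower, and Bst2 and Lgals9 higher, in WT MPP4 than in WT HSC. Against WT MPP1, no member differed at an adjusted p under 0.05 (edgeR quasi-likelihood test, Benjamini-Hochberg adjustment over all 15545 genes tested, the threshold for every call in the bulk data), and 0.0257% of all genes did; 4 members (beside 6.76% of all genes) were under 0.05 unadjusted and DESeq2 called 0. In WT HSC, 3 members were higher and 7 lower than in WT MPP1 without overlap, or 7.69% and 17.9% beside 7.19% and 7.63% of all genes. Against WT MPP2, 2 members were higher and 1 lower in WT HSC, where 1.40% of genes were higher and 2.51% lower. Against WT MPP4, 4 members were higher and 3 lower, where 5.40% of genes were higher and 6.65% lower. The members with groups that did not overlap were 14 higher and 5 lower against MPP2 (15.3% and 18.3% of all genes) and 15 higher and 6 lower against MPP4 (20.6% and 21.3% of all genes). The median member log2 fold change was 0.19 against MPP2 and 0.28 against MPP4, beside 0.00 and 0.04 for all genes.

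Ifit1, which binds the 5′ end of foreign RNA, had 18.4, 17.6 and 14.1 CPM in WT HSC, against 9.22, 5.13 and 7.08 CPM in WT MPP2 and 4.96, 4.88 and 3.45 CPM in WT MPP4. Every WT HSC library was above every MPP2 and MPP4 library, with log2 fold changes of 1.23 ± 0.29 and 1.91 ± 0.30 (SE; adjusted p = 0.021 and 0.00035, edgeR). Samd9l, a cytosolic restriction factor, had 35.1, 36.5 and 43.5 CPM in WT HSC, against 16.2, 22.7 and 20.3 CPM in WT MPP2 and 18.4, 15.6 and 17.6 CPM in WT MPP4. Its log2 fold changes were 0.96 and 1.16. Stat2 and the antiviral radical enzyme gene Rsad2 were higher in WT HSC than in WT MPP4, by log2 fold changes of 1.14 and 0.90. Ifi27l2a, a small mitochondrial protein gene, went the other way: it had 2.85, 0.930 and 1.96 CPM in WT HSC, against 16.6, 13.3 and 11.6 CPM in WT MPP2 and 29.4, 26.8 and 34.4 CPM in WT MPP4, with log2 fold changes of -2.85 and -3.98. Bst2, which tethers budding virus, and Lgals9, a secreted galectin, were lower in WT HSC than in WT MPP4, by log2 fold changes of -0.95 and -0.72. Without WT HSC replicate 2 none of the 3 calls against MPP2 passed, and 3 of the 7 against MPP4 did (Ifit1, Samd9l and Ifi27l2a). Against MPP2, Ifit1 also missed it without WT HSC replicate 1 or WT MPP2 replicate 2 or 3, Samd9l without WT HSC replicate 3 or WT MPP2 replicate 1 or 3, and Ifi27l2a without WT HSC replicate 3 or WT MPP2 replicate 1. Against MPP4, Stat2 and Rsad2 also missed it without WT MPP4 replicate 1 or 2, Bst2 without WT MPP4 replicate 1 or 3, and Lgals9 without WT HSC replicate 1 or WT MPP4 replicate 1.

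**Figure D1:**
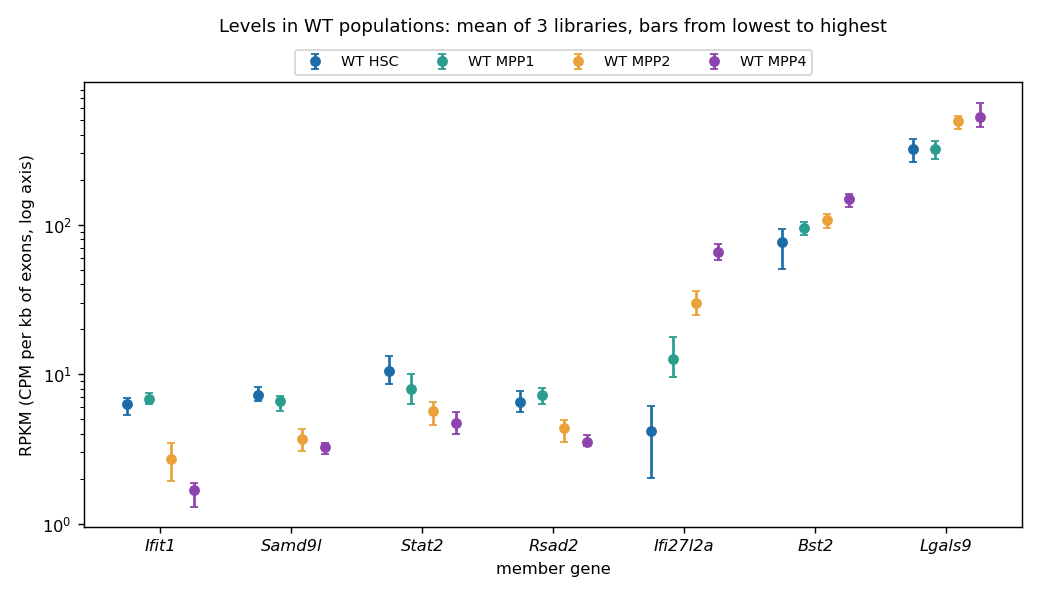
Level per kilobase of exon (RPKM, log axis) of the 7 members that differed between WT HSC and WT MPP2 or MPP4; points are means of 3 libraries and bars run from the lowest to the highest library. Ifit1, Samd9l, Stat2 and Rsad2 are highest in HSC or MPP1, and Ifi27l2a, Bst2 and Lgals9 are highest in MPP4.

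In HSC, Isg15, Rtp4 and Lgals3bp rose in Mettl3KO cells and no member fell. These 3 of 39 members (7.69%) compare with 3.66% of all genes that rose and 2.49% that fell. Of the members, 19 had a positive and 20 a negative log2 fold change, with a median of -0.01 beside 0.00 for all genes. Groups did not overlap for 7 members that were higher and 6 that were lower in Mettl3KO, or 17.9% and 15.4% of the members beside 12.1% and 12% of all genes.

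The signalling regulators did not pass the test in HSC. Irf7 had 100, 169 and 114 CPM in Mettl3KO HSC, against 111, 147 and 109 CPM in WT HSC (log2 fold change 0.06 ± 0.30 SE). Stat2 had 40.5, 54.3 and 41.2 CPM in Mettl3KO HSC, against 41.6, 57.8 and 38.0 CPM in WT HSC (-0.01 ± 0.30). Irf9 had 236, 198 and 210 CPM in Mettl3KO HSC, against 268, 259 and 245 CPM in WT HSC (-0.26 ± 0.19), with no overlap. Irf7 and Stat2 thus overlapped between the genotypes, and Irf9 was lower in every Mettl3KO library. Isg15, a ubiquitin-like protein that is attached to other proteins, had 19.1, 53.9 and 43.1 CPM in Mettl3KO HSC, against 14.7, 9.47 and 10.2 CPM in WT HSC. All Mettl3KO libraries were above all WT libraries, though replicate 1 by little; the log2 fold change was 1.76 ± 0.35 (SE; adjusted p = 0.0041, edgeR). Usp18, the protease that removes Isg15 from its targets, had 25.3, 27.6 and 28 CPM in Mettl3KO HSC, against 15.4, 16.8 and 19.2 CPM in WT HSC, without overlap (0.65 ± 0.23, adjusted p = 0.10, edgeR).

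Among the antiviral effectors in HSC, Rtp4, a receptor transport protein gene with antiviral activity, had 87.4, 175 and 142 CPM in Mettl3KO libraries, against 61.8, 45.6 and 51.9 CPM in WT libraries. The groups did not overlap, with a log2 fold change of 1.34 ± 0.25 (SE; adjusted p = 0.0027, edgeR). Ifit1 had 31.3, 29.4 and 31.3 CPM in Mettl3KO HSC, against 18.4, 17.6 and 14.1 CPM in WT HSC (0.87 ± 0.29, adjusted p = 0.079, edgeR). Ifi44 was lower, at 22.1, 26.2 and 18.6 CPM in Mettl3KO HSC, against 40.6, 45.4 and 38.0 CPM in WT HSC (-0.89 ± 0.37, adjusted p = 0.17, edgeR). Effectors of the same response therefore lay on both sides of WT, and neither Ifit1 nor Ifi44 passed the test. Lgals3bp, which encodes a secreted glycoprotein that binds galectin-3, had 457, 474 and 485 CPM in Mettl3KO HSC, against 279, 258 and 259 CPM in WT HSC (0.83 ± 0.24, adjusted p = 0.038, edgeR). Slfn2, a schlafen known to hold T cells in quiescence, had 47.5, 64.0 and 50.0 CPM in Mettl3KO HSC, against 20.2, 8.52 and 17.8 CPM in WT HSC (1.79 ± 0.66, adjusted p = 0.12, edgeR). The 3 most abundant members overlapped between genotypes: Ifitm1 at 491 to 1159 CPM in Mettl3KO HSC and 471 to 926 CPM in WT HSC, Ifitm3 at 270 to 629 CPM in Mettl3KO HSC and 267 to 463 CPM in WT HSC, and Ifi27 at 188 to 364 CPM in Mettl3KO HSC and 296 to 463 CPM in WT HSC.

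The Isg15 and Rtp4 calls in HSC passed without any of the 6 libraries, while the Lgals3bp call was lost without any of them (adjusted p = 0.050 to 0.12, edgeR). Some genes that mark the sorted cells differed in the same libraries. Flt3, a receptor gene of more mature progenitors, was at 7.19 to 15.3 CPM in Mettl3KO HSC and 54.4 to 228 CPM in WT HSC. Slamf1 was at 49.8 to 62.6 CPM in Mettl3KO HSC and 15.6 to 38.3 CPM in WT HSC. Other such genes overlapped between the genotypes. The stem cell marker Procr was at 62.9 to 84.6 CPM in Mettl3KO HSC and 72.5 to 92.8 CPM in WT HSC. In the same order, Cd48 was at 6.89 to 13.5 and 5.58 to 10.4 CPM, Ly6a at 889 to 1777 and 851 to 1046 CPM. Kit was at 253 to 850 and 604 to 1137 CPM. The part of the marker genes in the member results was not tested. In bulk RNA fewer cells of a type and less RNA per cell cannot be told apart.

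**Figure D2:**
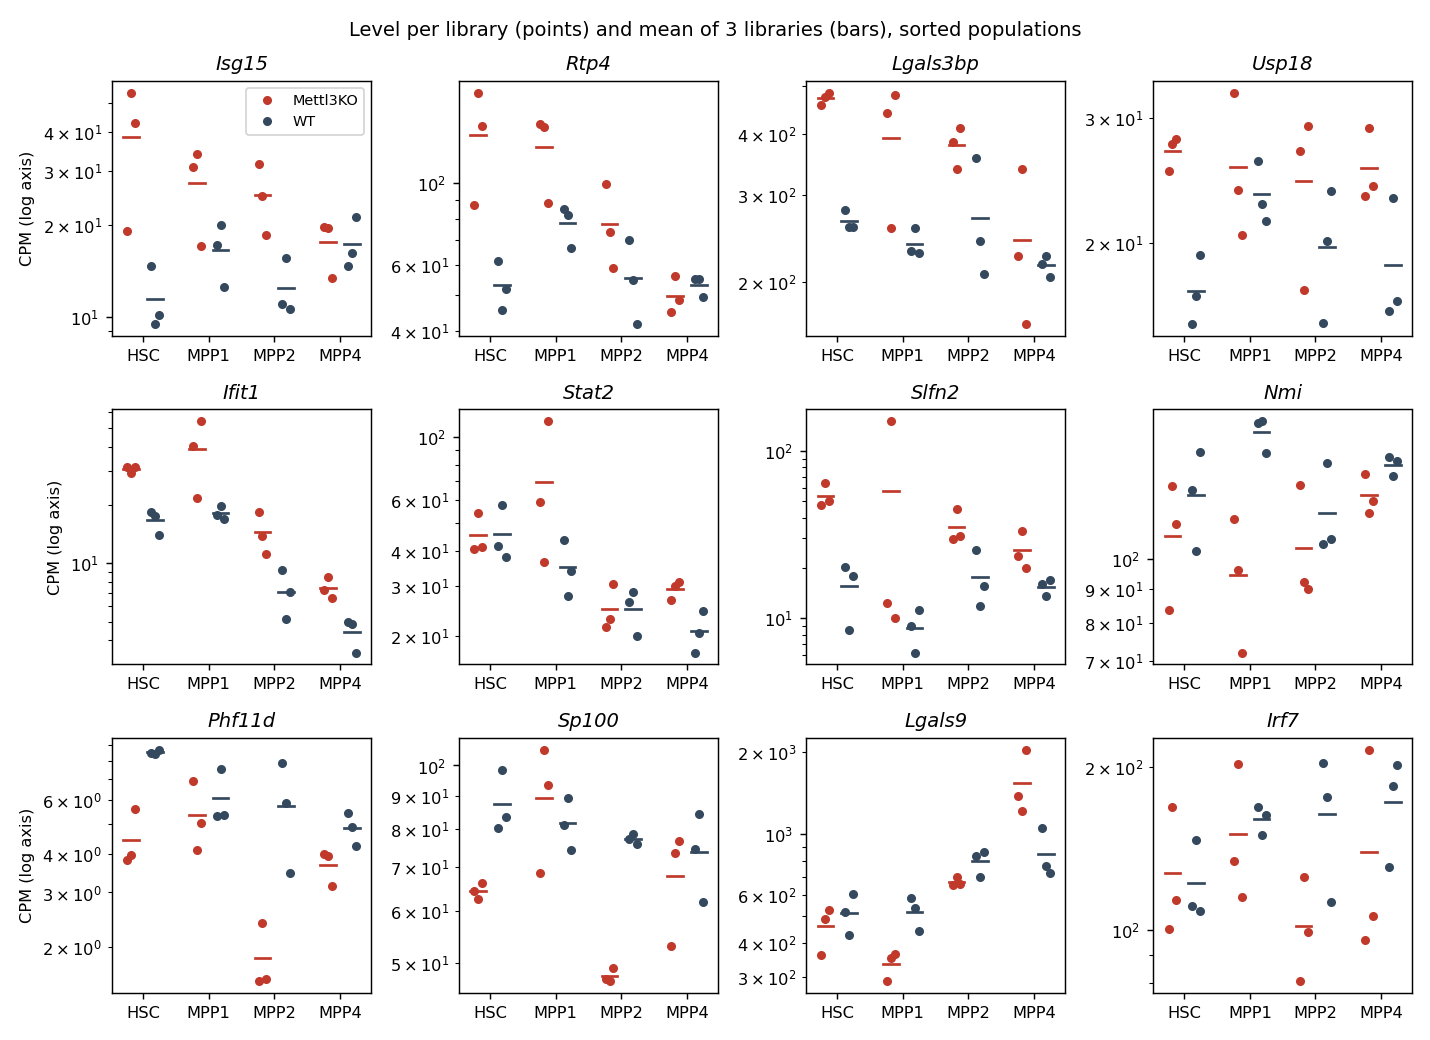
Level of 12 members (CPM, log axis) in each bulk library of HSC, MPP1, MPP2 and MPP4; points are libraries, bars are means of 3, with Mettl3KO left of WT. The 3 Mettl3KO HSC libraries are above the 3 WT HSC libraries for Isg15, Rtp4, Lgals3bp, Usp18, Ifit1 and Slfn2, and the single high Slfn2 point in MPP1 is Mettl3KO replicate 2 at 151 CPM.

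In MPP1, Ifit1, Stat2 and Slfn2 rose and Nmi fell in Mettl3KO cells, which is 3 members up (7.69%) and 1 down (2.56%) beside 4.74% and 3.89% of all genes. Groups did not overlap for 5 members that were higher and 7 that were lower (12.8% and 17.9%, beside 10.1% and 12.2% of all genes), and the median member log2 fold change was -0.09 beside 0.01 for all genes. Stat2, the signal transducer specific to type I and III interferons, had 59.1, 36.6 and 114 CPM in Mettl3KO MPP1, against 43.7, 27.6 and 34.0 CPM in WT MPP1. Replicate 2 lay inside the WT range and replicate 3 far above it (log2 fold change 0.99 ± 0.30 SE, adjusted p = 0.044, edgeR). Nmi, an interactor of STAT proteins, had 115, 96.1 and 72.0 CPM in Mettl3KO MPP1, against 161, 162 and 145 CPM in WT MPP1, with no overlap (-0.72 ± 0.20, adjusted p = 0.027, edgeR). Ifit1 had 40.3, 21.6 and 54.2 CPM in Mettl3KO MPP1, against 17.7, 19.8 and 16.8 CPM in WT MPP1 (1.09 ± 0.29, adjusted p = 0.023, edgeR), with replicate 2 just above the WT libraries. Irf7 (-0.09 ± 0.30), Irf9 (-0.10 ± 0.19), Usp18 (0.13 ± 0.23) and Isg15 (0.72 ± 0.34, adjusted p = 0.19, edgeR) did not pass the test in MPP1.

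Slfn2 in MPP1 rested on the library with the neutrophil genes: it had 12.3, 151 and 10.0 CPM in Mettl3KO libraries, against 8.97, 6.22 and 11.2 CPM in WT libraries (log2 fold change 2.71 ± 0.69 SE, adjusted p = 0.020, edgeR). Without Mettl3KO replicate 2 it was 0.36 (adjusted p = 0.52, edgeR). In the LK cells Slfn2 was at 206 to 422 CPM in the mature neutrophil-like class, and the part of neutrophil RNA in the MPP1 value was not tested. Leaving out that MPP1 library gave 8 members called instead of 4: Ifit1 (1.40), Stat2 (1.32), Dtx3l (1.18) and Lgals3bp (0.97) higher, and Ifi27 (-1.11), Herc6 (-1.01), Xaf1 (-0.97) and Nmi (-0.72) lower. Without Mettl3KO replicate 3, Stat2 was 0.44 (adjusted p = 0.32, edgeR), and Ifit1 and Nmi also missed the threshold. Ifit1 and Stat2 further missed it without any of the 3 WT libraries, and Nmi and Slfn2 without WT replicate 1 or 2. Genes of B cells moved in the same populations: 10 of them summed to 158 to 174 CPM in Mettl3KO MPP1 and 44.5 to 52.1 CPM in WT MPP1, and to 2229 to 5015 CPM in Mettl3KO MPP4 and 688 to 1206 CPM in WT MPP4; their part in the member results was not tested.

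In MPP2, Phf11d and Sp100 fell in Mettl3KO cells and no member rose, so that 2 of 39 (5.13%) fell beside 0.965% of all genes, and 0 rose beside 1.51%. Groups did not overlap for 3 members that were higher and 9 that were lower (7.69% and 23.1%, beside 13% and 13.6% of all genes); the median was -0.02 for members and for all genes. Phf11d, a PHD-finger protein gene, had 1.54, 2.39 and 1.57 CPM in Mettl3KO MPP2, against 7.88, 5.84 and 3.48 CPM in WT MPP2 (log2 fold change -1.64 ± 0.37 SE, adjusted p = 0.022, edgeR). Sp100, which encodes a component of PML nuclear bodies, had 47.3, 46.9 and 49.1 CPM in Mettl3KO MPP2, against 77.2, 78.8 and 75.9 CPM in WT MPP2 (-0.69 ± 0.17, adjusted p = 0.030, edgeR). Both genes separated the genotypes completely, and Sp100 with very little spread. Isg15 had 31.7, 24.9 and 18.5 CPM in Mettl3KO MPP2, against 11, 15.6 and 10.6 CPM in WT MPP2 (1.01 ± 0.34, adjusted p = 0.13, edgeR), and Ifit1 had a log2 fold change of 1.02 ± 0.29 (adjusted p = 0.067, edgeR). Irf7 had 80.4, 126 and 99.4 CPM in Mettl3KO MPP2, against 203, 176 and 113 CPM in WT MPP2 (-0.69 ± 0.30, adjusted p = 0.26, edgeR). Irf9 (-0.43), Usp18 (0.31) and Stat2 (0.00) did not pass the test. The Sp100 call was lost without any 1 of the 6 libraries (adjusted p = 0.072 to 0.11, edgeR), and the Phf11d call without Mettl3KO replicate 1 or 3 or WT replicate 1 or 2 (0.068 to 0.14, edgeR). Macrophage genes varied in the same libraries, 11 of them summing to 337 to 887 CPM in Mettl3KO MPP2 and 435 to 9231 CPM in WT MPP2, and their part was not tested.

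In MPP4, Lgals9 rose in Mettl3KO cells and no other member passed, which is 1 of 39 (2.56%) beside 1.03% of all genes that rose, and 0 that fell beside 2.10%. Groups did not overlap for 9 members that were higher and 7 that were lower (23.1% and 17.9%, beside 13.9% and 14.4% of all genes), and the median was 0.02 beside -0.01 for all genes. Lgals9 had 1379, 1216 and 2049 CPM in Mettl3KO MPP4, against 1059, 764 and 724 CPM in WT MPP4, without overlap (log2 fold change 0.87 ± 0.20 SE, adjusted p = 0.021, edgeR). Without Mettl3KO replicate 3 the log2 fold change was 0.61 (adjusted p = 0.19, edgeR), and without WT replicate 2 or 3 the call was lost as well. Isg15 had 19.6, 19.6 and 13.4 CPM in Mettl3KO MPP4, against 14.6, 16.1 and 21.2 CPM in WT MPP4 (0.02 ± 0.34). Rtp4 had 44.9, 56.1 and 48.4 CPM in Mettl3KO MPP4, against 55.1, 55.2 and 49.4 CPM in WT MPP4 (-0.10 ± 0.25). Both genes thus overlapped between the genotypes in MPP4. Irf7 (-0.31), Irf9 (-0.16), Stat2 (0.49) and Usp18 (0.45) did not pass either.

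**Figure D3:**
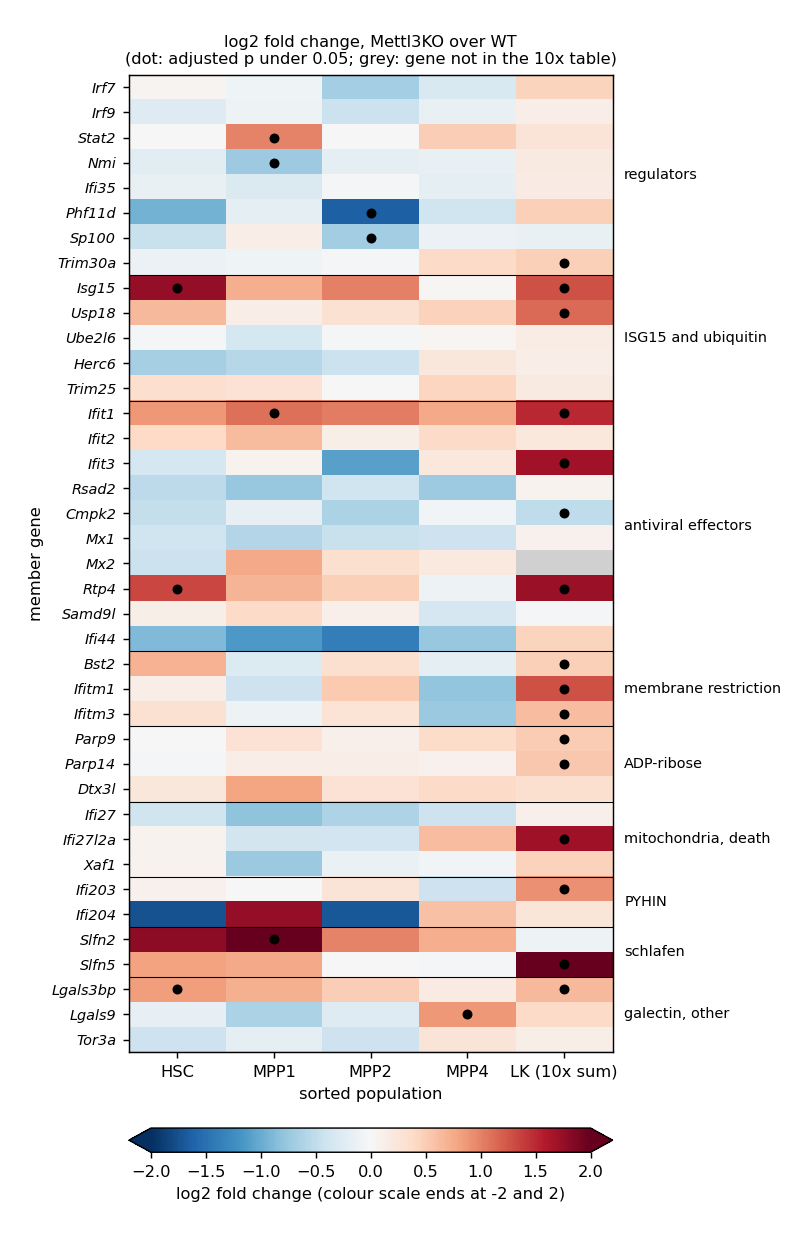
Log2 fold change, Mettl3KO over WT, of the 39 members (rows, by role) in 4 sorted populations and the summed LK cells (columns); dots mark adjusted p under 0.05, grey a gene outside the single-cell table, and colours end at -2 and 2. Dots number 3, 4, 2 and 1 in HSC, MPP1, MPP2 and MPP4 and 16 in LK.

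Across the 4 sorted populations, 9 members had a positive log2 fold change in every one (Isg15, Ifit1, Ifit2, Usp18, Parp9, Dtx3l, Trim25, Lgals3bp and Slfn2), or 23.1% beside 14.9% of all genes. Another 9 had a negative one in every population (Irf9, Ifi27, Rsad2, Mx1, Cmpk2, Ifi35, Ifi44, Phf11d and Nmi), or 23.1% beside 16% of all genes. The populations have separate libraries, but they may come from the same mice. Ifi44, an interferon-induced cytoplasmic protein gene, had log2 fold changes of -1.15 in MPP1 (adjusted p = 0.062), -1.39 in MPP2 (0.056) and -0.76 in MPP4 (0.32, all edgeR). It had 6.36, 14.0 and 7.0 CPM in Mettl3KO MPP2 against 20.9, 27.8 and 23 CPM in WT MPP2. The members' summed level overlapped between genotypes in HSC (3401 to 5078 CPM in Mettl3KO and 3445 to 4349 CPM in WT), in MPP1 (3455 to 4413 and 4134 to 4636 CPM, in the same order), in MPP2 (3299 to 3909 and 3503 to 3974 CPM) and in MPP4 (4061 to 4524 and 3914 to 4101 CPM).

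Whether the genotype effect itself differed between populations was tested as the effect in HSC minus that in each progenitor. Rtp4 was the only member called, in HSC minus MPP4, where the difference was 1.44 ± 0.35 on the log2 scale (SE; adjusted p = 0.044, edgeR) beside 0.939% of all genes called in that direction and 0.611% in the other. Isg15 had a larger difference, 1.74 ± 0.48, that missed the threshold (adjusted p = 0.076, edgeR). The Rtp4 call was lost in 11 of the 12 fits that left out 1 library (1.21 to 1.56, adjusted p = 0.058 to 0.13, edgeR), the exception being the fit without Mettl3KO HSC replicate 1 (1.67, adjusted p = 0.0093). For HSC minus MPP1 edgeR called 0 members beside 0.0386% of all genes (6 members under 0.05 unadjusted, beside 10.3% of genes; DESeq2 called 0), and for HSC minus MPP2 it called 0 beside 0.00643% (1 unadjusted, beside 3.58%; DESeq2 0).

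Other genes of the pathway were called in the sorted populations as well. Of all genes, 3.66% rose and 2.49% fell in HSC, and 4.74% rose and 3.89% fell in MPP1. In MPP2 1.51% rose and 0.965% fell, and in MPP4 1.03% rose and 2.10% fell. Of 9 receptor and kinase genes, Ifngr2, a chain of the interferon gamma receptor, rose in HSC (log2 fold change 0.89) and MPP1 (0.90). Of 30 further effector genes in the table, the immunity-related GTPase genes Igtp and Irgm1 rose in HSC (1.25 and 1.17), MPP1 (1.18 and 1.11) and MPP2 (1.18 and 1.03). Oasl1 also rose in HSC (1.40), and Oas2 (2.02) and Iigp1 (1.09) rose in MPP1. Effector genes that fell were Phf11b in HSC (-1.82) and MPP1 (-1.57) and Isg20 in MPP1 (-1.10) and MPP4 (-1.28); Phf11b is a relative of Phf11d, and Isg20 encodes an exonuclease. The RNA sensor gene Ifih1, counted among both the 15 sensors and the effectors, fell in HSC (-1.17), where the endosomal RNA receptor gene Tlr7 was at 0 in all 3 Mettl3KO libraries and 0.709 to 12.6 CPM in WT libraries. Of the other transcription factor genes reported here, Irf2 (-1.13) and Irf5 (-1.49) fell in HSC and Irf8 (1.51) rose in MPP1, and of 12 negative regulators only the phosphatase gene Ptpn6 passed, falling in HSC (-0.46) and MPP4 (-0.52). Of 18 interferon genes, 1 passed the filter on low counts, and it was not called in any of the 4 populations.

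In the LK cells summed per library, 15 of 38 members rose and 1 fell in Mettl3KO mice (39.5% and 2.63%), beside 13.7% and 8.72% of the 13071 genes tested. The log2 fold change was positive for 34 members and negative for 4, with a median of 0.42 beside -0.0037 for all genes, and groups did not overlap for 18 members that were higher and 1 that was lower (47.4% and 2.63%, beside 22.0% and 19.5% of all genes). The smallest adjusted p belonged to Rtp4, which had 41.6, 37.8 and 31.9 CPM in Mettl3KO LK cells, against 10.9, 11.4 and 11.3 CPM in WT LK cells (1.73 ± 0.10 SE, adjusted p = 0.00022, edgeR). Here CPM are UMI counts scaled to library size.

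Of the regulators in LK cells, Trim30a, a ring-finger protein gene that damps Toll-like receptor signalling in mice, rose to 37.6, 39.9 and 36.2 CPM in Mettl3KO, against 27.9, 27.3 and 26.7 CPM in WT (0.47 ± 0.07). Irf7 (0.45 ± 0.21, adjusted p = 0.16), Stat2 (0.26 ± 0.13, 0.19) and Irf9 (0.14 ± 0.08, 0.26, all edgeR) did not pass, with Irf7 at 9.93, 17.5 and 12.2 CPM in Mettl3KO and 7.93, 10.5 and 10.6 CPM in WT. In the ISG15 system, Isg15 had 37.2, 33.6 and 31.1 CPM in Mettl3KO, against 11.9, 13.9 and 16.4 CPM in WT (1.28 ± 0.12, adjusted p = 0.00081, edgeR). Usp18 had 8.71, 10.9 and 10.2 CPM in Mettl3KO, against 4.08, 4.55 and 5.0 CPM in WT (1.13 ± 0.13). For both genes every Mettl3KO library was above every WT library by a wide margin, and Ube2l6, Herc6 and Trim25 did not pass (0.13 to 0.17).

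Antiviral effectors were split in LK cells as well. Besides Rtp4, Ifit3 (1.67 ± 0.28) and Ifit1 (1.5 ± 0.32) rose, while Cmpk2, a mitochondrial nucleotide kinase gene beside Rsad2, fell to 8.91, 11 and 10.3 CPM in Mettl3KO, against 13, 13.9 and 16.4 CPM in WT (-0.52 ± 0.12, adjusted p = 0.017, edgeR). Rsad2 itself (0.07), Mx1 (0.08), Ifit2 (0.21), Samd9l (-0.02) and Ifi44 (0.45 ± 0.25) did not pass. All 3 membrane factors rose: Ifitm1 had 331, 435 and 248 CPM in Mettl3KO, against 120, 160 and 140 CPM in WT (1.27 ± 0.19), Bst2 had 143, 160 and 141 CPM in Mettl3KO, against 105, 107 and 107 CPM in WT (0.47 ± 0.07), and Ifitm3 rose by 0.62 ± 0.14. Ifi27l2a had 39, 77.2 and 53.4 CPM in Mettl3KO, against 20.1, 13.7 and 18.7 CPM in WT (1.69 ± 0.25), and its neighbour Ifi27 did not pass (0.10 ± 0.09). Ifi203, a DNA-binding PYHIN protein gene, had 84.8, 79.3 and 74.2 CPM in Mettl3KO, against 46.3, 36.8 and 43.8 CPM in WT (0.91 ± 0.10).

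Slfn5 had 2.64, 1.74 and 2.02 CPM in Mettl3KO LK cells, against 0.527, 0.301 and 0.524 CPM in WT LK cells (2.25 ± 0.28, the largest among members), and Lgals3bp had 71.0, 75.6 and 68.2 CPM in Mettl3KO, against 39.7, 51.4 and 46.4 CPM in WT (0.64 ± 0.10). Parp9 (0.50) and Parp14 (0.55), which modify proteins with ADP-ribose, rose as well. Slfn2 had 26.3, 26.3 and 21.2 CPM in Mettl3KO, against 16.2, 13.8 and 49.5 CPM in WT, and its highest value was in the WT library with the neutrophil genes (-0.10 ± 0.43). Without that library Slfn2 passed the test at 0.70 (adjusted p = 0.0069, edgeR), and 17 members were called instead of 16. The Parp14 call was lost without Mettl3KO replicate 2 or 3 or WT replicate 2, the Ifitm3 call without Mettl3KO replicate 1 or 2 or WT replicate 1 or 2, and the Cmpk2 call without Mettl3KO replicate 1.

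The cell types in the LK gate differed greatly between the genotypes. Cells were clustered without the members and the pathway genes other than Irf8, which is also a monocyte marker, and clusters were named from marker genes. HSC/MPP-like cells made up 20.7% of Mettl3KO cells (2494 of 12051) and 0.275% of WT cells (34 of 12345), megakaryocyte-like cells 10.1% of Mettl3KO and 3.90% of WT cells, and B cell-like cells 23.2% of Mettl3KO and 4.93% of WT cells. Erythroid-like cells made up 6.83% of Mettl3KO and 15.2% of WT cells, granulocyte-like cells 10.5% and 18.2%, and mature neutrophil-like cells 1.05% and 9.40%, in the same order. The HSC/MPP-like and megakaryocyte-like shares depended on how finely the cells were clustered. With coarser clusters (Leiden resolution 0.5) no cluster was named HSC/MPP-like, and megakaryocyte-like cells made up 0.398% of Mettl3KO and 3.87% of WT cells, the other direction. With finer clusters (resolution 2) megakaryocyte-like cells made up 9.85% of Mettl3KO and 3.85% of WT cells, and HSC/MPP-like cells 10.9% of Mettl3KO (1312 cells) and 2.62% of WT cells (323 cells). In Mettl3KO the HSC/MPP-like class had 91.6, 71.4 and 75.0 CPM of Isg15, against 9.59, 6.99 and 11.4 in granulocyte-like cells of the same libraries. It had 135, 114 and 114 CPM of Rtp4, and it had too few WT cells for a comparison at the resolution used.

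The finer HSC/MPP-like class had at least 88 cells in every library and was compared between the genotypes. It leaves out clusters that scored highest for the HSC/MPP markers but were not named. Cluster 1 (1172 cells) held 589, 169 and 408 cells of the Mettl3KO libraries and 4, 2 and 0 of the WT libraries. Cluster 3 (1098 cells) held 113, 76 and 118 cells of the Mettl3KO libraries and 287, 257 and 247 of the WT libraries. The values below thus cover only a part of such cells. There 4 of 31 members tested rose and 5 fell, beside 12.9% and 11% of all genes, and the median member log2 fold change was -0.29. Lgals3bp (1.02 ± 0.15 SE), Slfn2 (1.61 ± 0.33), Isg15 (0.77 ± 0.19) and Bst2 (0.36 ± 0.12) rose. Isg15 had 107, 79.9 and 99.97 CPM in Mettl3KO, against 60.7, 42.2 and 66.0 CPM in WT, without overlap (adjusted p = 0.0042, edgeR). Ifi44 (-2.05 ± 0.28), Ifi27 (-0.82 ± 0.15), Sp100 (-0.80 ± 0.18), Ifi35 (-0.75 ± 0.18) and Nmi (-0.61 ± 0.19) fell, with Ifi44 at 11.1, 7.41 and 12 CPM in Mettl3KO, against 36.9, 39.7 and 53.2 CPM in WT (adjusted p = 9.5e-06, edgeR). Rtp4 did not pass (0.48 ± 0.19, adjusted p = 0.076, edgeR). Without 1 library 7 to 12 members were called; the Bst2 call was lost without replicate 1 or 3 of either genotype, the Nmi call without Mettl3KO replicate 1 or WT replicate 1 or 2, and the Ifi35 call without WT replicate 1. Different clusters held most of the class in the genotypes: clusters 15 and 19 (680 and 616 cells) were mostly Mettl3KO, and cluster 30 (339 cells) held 15, 5 and 12 cells of the Mettl3KO libraries and 83, 84 and 140 of the WT libraries.

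With HSC/MPP-like and megakaryocyte-like cells left out of the LK sums, 12 members rose and none fell, beside 7.82% and 5.68% of all genes. Of these, 9 had risen in all LK cells: Rtp4 (1.06, adjusted p = 0.0050), Ifi27l2a (2.01), Slfn5 (1.05), Usp18 (0.90), Isg15 (0.76, adjusted p = 0.030), Ifi203 (0.71), Parp14 (0.60), Trim30a (0.43) and Bst2 (0.42, all edgeR). The others were Lgals9 (0.59), Ifi35 (0.29) and Tor3a (0.27). The cells that remained still differed in type, with 2795 B cell-like cells in Mettl3KO and 608 in WT. Mature neutrophil-like cells numbered 126 and 1160, and erythroid-like cells 823 and 1880, in the same order. The part of these differences in the calls was not tested. The calls lost were 7: Ifit3 (1.46, adjusted p = 0.093), Ifit1 (0.57, 0.31), Ifitm1 (0.45, 0.31), Parp9 (0.42, 0.076), Ifitm3 (0.30, 0.29), Lgals3bp (0.19, 0.35) and Cmpk2 (-0.37, 0.060, all edgeR). When the 6 classes that had 50 or more cells in each library were weighted equally, 11 of 38 members did not overlap between the groups, all higher in Mettl3KO, beside 12.5% of genes higher and 14.9% lower; 27 were higher and 11 lower in the mean, and the median log2 ratio was 0.13. In that weighting Isg15 stood at 30.3, 34.7 and 30.4 CPM in Mettl3KO, against 15.5, 14.9 and 21.2 in WT, and Rtp4 at 33.2, 38.3 and 26.0 in Mettl3KO, against 21.1, 19.5 and 20.5 in WT. The megakaryocyte-like class was among the 6, and its cells came mostly from different clusters in the genotypes. Cluster 7 held 1168 Mettl3KO and 3 WT cells, and cluster 17 held 49 and 479, in the same order. The part of this class in the equal-weight means was not tested.

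Within each single class fewer members were tested and called than in the whole LK sum. The share of all genes called varied between the classes and is given beside each count. In megakaryocyte-like cells 44.4% of the members tested rose, a larger share than the 39.5% in the LK sum. In B cell-like cells 3 of 31 members tested rose and none fell, beside 0.255% and 0.414% of genes. Ifitm1 had 83.3, 82.8 and 72.2 CPM in Mettl3KO, against 24.2, 28.2 and 41.0 CPM in WT (1.44 ± 0.16 SE, adjusted p = 0.00013, edgeR), Isg15 had 38.2, 52.9 and 35.0 CPM in Mettl3KO, against 16.3, 10.3 and 22.5 CPM in WT (1.36 ± 0.24, 0.0072), and Ifi27l2a had 240, 293 and 234 CPM in Mettl3KO, against 169, 146 and 181 CPM in WT (0.62 ± 0.11, 0.0049). All 3 separated the genotypes; the Isg15 call was lost without WT replicate 1 or 2 and the Ifi27l2a call without WT replicate 2. In erythroid-like cells 6 of 31 rose and none fell, beside 4.05% and 2.55% of genes: Ifi27l2a (2.63), Ifi203 (1.38), Rtp4 (1.29), Ifitm1 (1.16), Bst2 (0.67) and Ifitm3 (0.55). Rtp4 had 12.8, 26.8 and 21.3 CPM in Mettl3KO erythroid-like cells, against 7.38, 9.94 and 7.59 CPM in WT, and Ifi27l2a was low in both, at 3.65 to 5.13 CPM in Mettl3KO and 0.356 to 0.918 CPM in WT. The Ifitm1 call there was lost without Mettl3KO replicate 1 or 3, and the Ifitm3 call without Mettl3KO replicate 2 or 3 or WT replicate 1 or 2. With finer clusters Ifitm1 in that class was 0.34 (adjusted p = 0.47, edgeR).

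In lymphoid-primed-like cells 2 of 30 members rose and 1 fell, beside 1.56% and 1.98% of genes. Usp18 had 19.6, 22.1 and 20.1 CPM in Mettl3KO, against 8.41, 9.50 and 9.84 CPM in WT (1.16 ± 0.30, adjusted p = 0.036, edgeR), a call lost without any 1 of the 6 libraries, and Ifi27l2a rose by 0.93 ± 0.17, or 0.59 (adjusted p = 0.13, edgeR) with finer clusters. Ifitm1 had 466, 475 and 357 CPM in Mettl3KO, against 705, 826 and 753 CPM in WT (-0.81 ± 0.11, adjusted p = 0.00072, edgeR), but with coarser or finer clusters its log2 fold change was 0.19 or 0.22. The direction of Ifitm1 in that class thus depended on where its borders were drawn. In monocyte-like cells 2 of 31 rose and none fell, beside 0.469% and 0.409% of genes: Lgals3bp (0.72 ± 0.13) and Ifitm1, at 150, 443 and 157 CPM in Mettl3KO, against 53.2, 98.9 and 82.0 CPM in WT (1.68 ± 0.33, adjusted p = 0.024, edgeR). Both were lost without WT replicate 1 or 2, and Ifitm1 in DESeq2. In granulocyte-like cells edgeR called 0 of 29, beside 0.433% of genes (8 under 0.05 unadjusted, beside 13.1%; DESeq2 called 0).

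Megakaryocyte-like cells had the most calls, 12 of 27 up and 1 down, but 16.9% of all genes rose and 15.4% fell there, and nearly all Mettl3KO cells of the class came from a cluster (number 7; 1168 Mettl3KO and 3 WT cells) that differed from the WT one (number 17; 49 Mettl3KO and 479 WT cells). The largest were Slfn2 (3.21), Ifit1 (2.09), Isg15 (1.95), Ifitm1 (1.78) and Rtp4 (1.34), and Ifi27 fell by 0.49 on the log2 scale. Isg15 there had 76.2, 44.9 and 57.8 CPM in Mettl3KO, against 22.6, 9.88 and 15.0 CPM in WT. The Ifit1 call was lost without WT replicate 2 and the Ifi27 call without Mettl3KO replicate 1 or WT replicate 2; the calls for Dtx3l, Samd9l, Trim30a and Usp18 were each lost without at least 1 library as well. Platelet genes differed in the same class, with Pf4 at a log2 fold change of -3.03 and Gp1bb at -3.37, and their part in the member results was not tested.

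B cell genes rose in other classes of Mettl3KO libraries too. Of those tested, 7 of 8 rose in erythroid-like cells, beside 4.05% of all genes. In granulocyte-like cells 6 of 7 rose, beside 0.433% of all genes called in either direction. In monocyte-like cells 5 of 7 rose (beside 0.469%), and in lymphoid-primed-like cells 5 of 7 (beside 1.56%). In granulocyte-like cells 10 B cell genes summed to 111 to 177 CPM in Mettl3KO and 77.0 to 79.8 in WT. Which cells this RNA came from was not tested. Ifi27l2a, which rose in erythroid-like cells at 3.65 to 5.13 CPM, was at 234 to 293 CPM in B cell-like cells of the same Mettl3KO libraries. Summed neutrophil genes were highest in WT replicate 3 in each of the 6 classes tested, from 1663 CPM in erythroid-like to 36012 in granulocyte-like cells. The part of both gene groups in the class results was not tested.

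**Figure D4:**
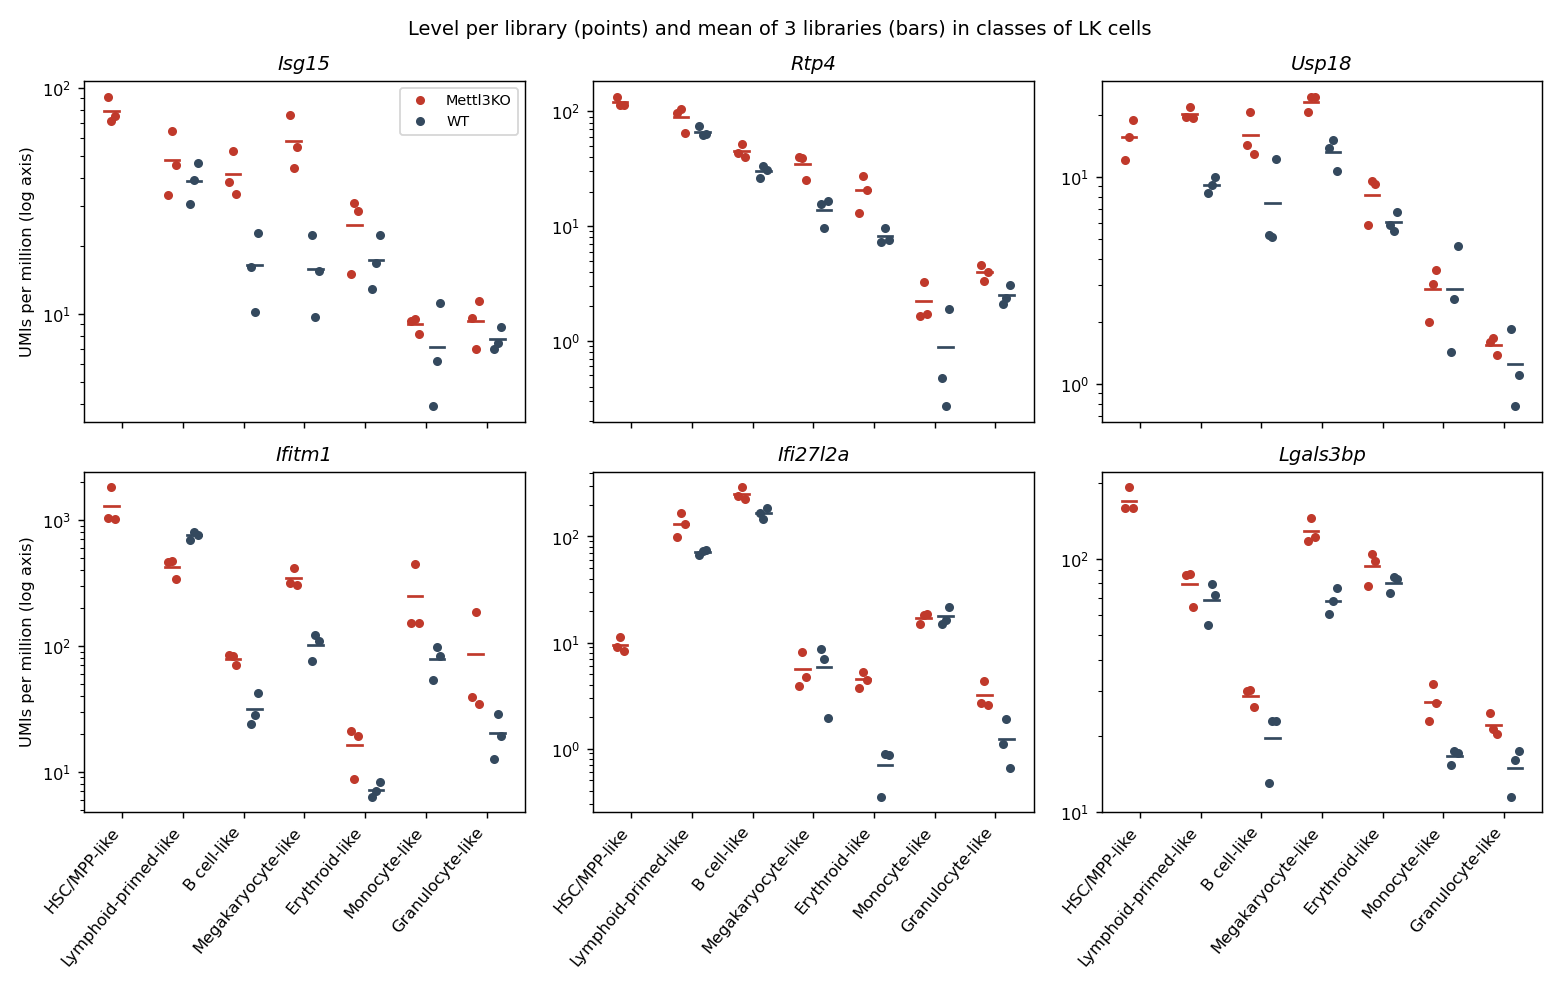
Level of 6 members (unscaled CPM, UMIs divided by the library's class total, log axis) in 7 classes of LK cells; points are libraries and bars are means of 3, with Mettl3KO left of WT. HSC/MPP-like cells are shown for Mettl3KO only, where the 3 libraries hold 71.4 to 91.6 CPM of Isg15, and the means of Isg15 and Rtp4 are lowest in monocyte-like and granulocyte-like cells.

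The cells that carried the inducible members were counted after each cell was thinned to 3000 UMIs, with cells below that left out. Over 13 inducible members (Isg15, Ifit1, Ifit2, Ifit3, Irf7, Usp18, Rsad2, Mx1, Cmpk2, Rtp4, Ifi44, Xaf1 and Herc6), 32.6%, 35.6% and 28.8% of Mettl3KO cells had at least 1 UMI, against 19.8%, 19.9% and 19.0% of WT cells. At least 3 UMIs were found in 6.18%, 6.68% and 4.99% of Mettl3KO cells, against 1.94%, 2.45% and 1.45% of WT cells. The 95% Wilson intervals of these shares ran from 4.41% to 7.64% in Mettl3KO and from 1.12% to 3.01% in WT, counting error only. Without thinning the shares were 15.3%, 20.3% and 13.3% in Mettl3KO and 8.34%, 10.8% and 5.77% in WT; 18, 10 and 79 cells of Mettl3KO and 59, 0 and 419 of WT were below 3000 UMIs.

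Shares differed widely between classes. With at least 3 UMIs of the inducible members after thinning, HSC/MPP-like cells reached 13.6%, 11.8% and 13.9% in Mettl3KO, and were 2 of 12, 1 of 10 and 1 of 7 cells in WT. Lymphoid-primed-like cells reached 10.6%, 18.5% and 10.2% in Mettl3KO, against 8.51%, 10.1% and 7.88% in WT, and B cell-like cells 5.52%, 6.92% and 4.54% in Mettl3KO, against 2.03%, 3.23% and 2.73% in WT (intervals of 0.932% to 8.0% over the WT libraries). Granulocyte-like cells were at 0.592%, 0.515% and 0.532% in Mettl3KO, against 0.698%, 0.245% and 0.887% in WT, at a median depth of 9694 to 15004 UMIs in Mettl3KO and 7693 to 10647 UMIs in WT before thinning, deeper than the 5296 to 6566 UMIs of Mettl3KO HSC/MPP-like cells. The shares were not tested. Irf7 was highest in dendritic-like cells, at 86.6, 171 and 94.9 CPM in Mettl3KO, against 123, 107 and 83.5 in WT.

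**Figure D5:**
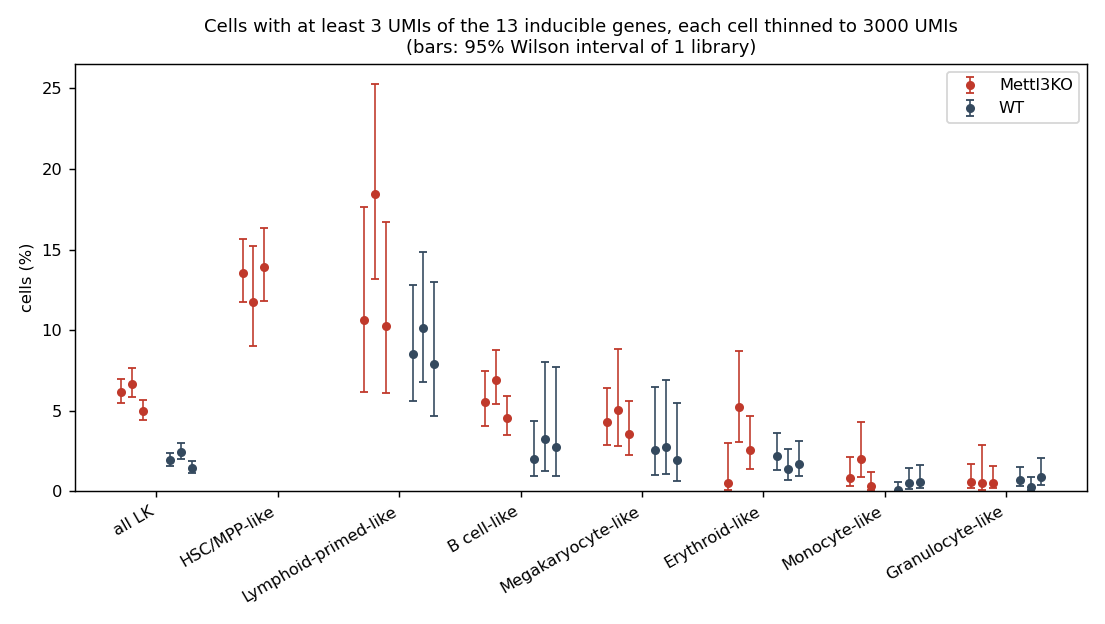
Share of cells (%) with at least 3 UMIs of 13 inducible members after thinning to 3000 UMIs, per library with its 95% Wilson interval, for all LK cells and 7 classes, Mettl3KO left of WT. HSC/MPP-like cells are shown for Mettl3KO only (11.8% to 13.9%), and granulocyte-like cells stay below 1% in every library.

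Other genes of the pathway were called in the summed LK cells, with 22.4% of all genes called there in either direction. Of all genes tested, 13.7% rose and 8.72% fell. The sums mix cell types whose shares differed between the genotypes. Values for these genes without HSC/MPP-like and megakaryocyte-like cells are not given here. Of 29 further effector genes tested 12 rose and none fell, among them Iigp1 (log2 fold change 2.58), Igtp (1.51), Gbp2 (1.49), Irgm1 (1.20) and Oasl2 (0.95), GTPase and oligoadenylate synthetase family genes. Of the other transcription factor genes reported here, Batf2 (0.98), Irf1 (0.94), Irf5 (0.53) and Stat3 (0.30) rose. Of 14 sensors 3 rose, Tlr3 (1.59), Zbp1 (1.25) and Tmem173 (0.45), which encodes STING. Of 12 negative regulators 5 rose, led by the cytokine signalling inhibitors Socs3 (3.26), Cish (1.94) and Socs1 (1.26), and Usp25 fell by 0.24 on the log2 scale. Of 8 receptor and kinase genes Ifnar1 (0.49) and Ifngr2 (0.30) rose and Ifngr1 (-0.43) and Jak2 (-0.29) fell, and none of 18 interferon genes passed the filter on low counts. In the B cell-like class 5 of 25 further effectors rose and none fell (beside 0.255% and 0.414% of genes), with Iigp1 at 2.00. In the erythroid-like class 9 of 25 rose, with Iigp1 at 1.86, and Ifitm2, a near copy of Ifitm3, fell at -0.43 (beside 4.05% and 2.55% of genes). In granulocyte-like and monocyte-like cells 0 of 23 passed in either (10 and 8 under 0.05 unadjusted, beside 13.1% and 13.4% of genes).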

How the data were processed

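Bulk RNA-seq libraries (SMARTer, poly(A)) were sequenced as paired reads, and Bowtie, TopHat and Cell Ranger 2.2 are named without roles, per the submitters' processing notes. The deposited bulk table is titled as FPKM but holds whole-number counts per gene that differ in their totals, and the authors' single-cell table holds UMI counts per gene and cell; both were analysed as counts. No source used here names the counting tool, its strand setting or how reads shared by several genes were treated. In 166 of 11720 bulk genes with a mean count over 100, Mx2 among them, all counts were even; 27 row names in the bulk table look like dates.

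Counts were scaled by TMM, filtered with filterByExpr and tested by the edgeR quasi-likelihood test with Benjamini-Hochberg adjustment over all genes (edgeR 4.0.16, R 4.3.3). All 24 bulk libraries shared 1 fit with 1 term per group (16 residual degrees of freedom). CPM are counts scaled to a common library size after TMM, and RPKM divide them by the union of exons in GENCODE vM21 (GRCm38). For LK, cells with over 10% mitochondrial UMIs were removed (297 of 24693), and 303 barcodes occurred in more than 1 library. Scrublet marked 248 cells (1.02%) as doublets, which were kept. Cells were clustered with Leiden at resolution 1 (scanpy 1.11.5, leidenalg 0.10.2) without members and pathway genes other than Irf8. Of the clusters, 19 of 26 were named from marker genes and 7 stayed unnamed. UMIs were summed per library, over all cells or within classes of at least 50 cells in each library. Class levels in HSC/MPP-like and dendritic-like cells, summed gene lists and equal-weight means are CPM without TMM scaling. Fold changes are Mettl3KO over WT, or HSC over the progenitor, and "called" means an adjusted p under 0.05.

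The members and gene lists were chosen with earlier results of these data known. A gene of the transcription factor list is not reported here, so that list is given without a count. Every member is accounted for: those called are named, and where over 10 were called the 10 with the smallest adjusted p are given by library; Irf7, Irf9, Stat2, Usp18, Isg15 and the 3 most abundant are given in any case, and in WT populations and LK classes up to 5 per direction by fold change. Replicates came from different mice. Replicate numbers did not pair the genotypes: the deviations of same-numbered Mettl3KO and WT libraries correlated at -0.14 to 0.054 in bulk and at -0.30 to -0.066 in LK. Same-numbered WT libraries of different populations correlated at 0.052 to 0.25, with 12 of 18 pairs over 0.1. For Mettl3KO libraries of different populations the range was -0.090 to 0.23, with 4 of 18 pairs over 0.1. The main fit treated all these libraries as independent, also in the contrasts between populations. On simulated counts the test recovered 28 of 50 genes changed by 2-fold and 50 of 50 changed by 4-fold in HSC, and 50 of 50 at either size in LK. The simulation gave every gene the same spread and changed only genes above a minimum level. It does not give the recovery for members with a wider spread or a lower level. Alternatives were RLE scaling, no low-count filter, DESeq2 1.42.0, limma 3.58.1 voom with quality weights, only the compared groups, a replicate block, other cluster resolutions, no mitochondrial filter and leaving out each library. Sums without doublets or without HSC/MPP-like and megakaryocyte-like cells, equal class weights and the test of the HSC/MPP-like class at resolution 2 were chosen after seeing the data.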

Additional observations from a re-analysis of the deposited data

Results flagged for a closer look

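The Mettl3KO effect on Rtp4 differed between HSC and MPP4, by 1.44 ± 0.35 on the log2 scale (SE; adjusted p = 0.044, edgeR quasi-likelihood test of the difference). The call was lost in 11 of the 12 fits that left out 1 library (adjusted p = 0.058 to 0.13), with no low-count filter (0.052) and with only the compared groups fitted (0.055). Rtp4 had 87.4, 175 and 142 CPM in Mettl3KO HSC, against 61.8, 45.6 and 51.9 CPM in WT HSC, and it had 44.9, 56.1 and 48.4 CPM in Mettl3KO MPP4, against 55.1, 55.2 and 49.4 CPM in WT MPP4.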

How the results depend on the processing

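Counts of members called moved with the test. DESeq2 called 6 members in HSC, 9 in MPP1, 4 in MPP2, 2 in MPP4, 3 in HSC minus MPP4, 7 in WT HSC against WT MPP2, 12 against WT MPP4, and 1 in monocyte-like cells, where edgeR called 3, 4, 2, 1, 1, 3, 7 and 2. limma voom with quality weights called 11 in HSC, 2 in MPP1, 6 in MPP2, 5 in MPP4, 5 in HSC minus MPP4, 8 in WT HSC against WT MPP2 and 14 against WT MPP4. Fitting only the compared groups gave 0 in MPP1, 1 in MPP2, 3 in MPP4, 0 in HSC minus MPP4 and 12 in WT HSC against WT MPP4. With no low-count filter, 0 were called in MPP2, 0 in HSC minus MPP4, 9 in B cell-like, 3 in granulocyte-like, 5 in lymphoid-primed-like and 4 in monocyte-like cells. The cause was not tested. With a replicate block, 2 were called in HSC minus MPP4, 5 in WT HSC against WT MPP2 and 1 in granulocyte-like cells; the block moved no other count of members by over 1.5 times. Past the threshold without the block but not with it were Stat2 in MPP1 (0.96, adjusted p = 0.065), Parp14 in LK (0.55, 0.057), Usp18 in lymphoid-primed-like cells (1.15, 0.062) and Dtx3l in megakaryocyte-like cells (0.57, 0.062, all edgeR). RLE scaling moved no count by over 1.5 times.

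Leaving out 1 library gave 2 to 3 members in HSC, 0 to 8 in MPP1, 0 to 2 in MPP2, 0 to 1 in MPP4, 0 to 2 in HSC minus MPP4, 0 to 2 in WT HSC against WT MPP2, 3 to 7 against WT MPP4, 14 to 17 in LK, 1 to 4 in B cell-like, 4 to 6 in erythroid-like, 0 to 1 in granulocyte-like, 2 to 3 in lymphoid-primed-like, 9 to 13 in megakaryocyte-like and 0 to 4 in monocyte-like cells.

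At Leiden resolution 0.5, 3 members were called in granulocyte-like cells and the megakaryocyte-like class, with as few as 13 cells in a library, was not tested, and at resolution 2, 0 were called in lymphoid-primed-like cells. Ifitm1 in lymphoid-primed-like cells, at -0.81, was 0.19 at resolution 0.5 and 0.22 at resolution 2. Of the single-gene values under all alternatives, 630 kept their side of the threshold, 141 missed it in the same direction and 2 reversed. The whole LK sum called 16 members without the mitochondrial filter, 16 without doublets and 16 with RLE scaling.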
